A study of Mus musculus with 17 samples.

Results

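Polh, Rev1, Rev3l, Mad2l2, Polk, Poli, Polq and Rad18 were followed in germinal centre (GC) B cells from mouse lymph nodes. The 8 genes were chosen by name as the translesion DNA polymerases and their partners, and all 8 were found among the 21848 genes of the 10X Genomics 5′ single-cell count tables. RNA was measured in 4 libraries: a time course in a larger experiment (25 mice) and a smaller one (14 mice), each pooled into 1 library, and a cyclin-dependent kinase 2 (CDK2) reporter experiment sorted into 2 pools from the same mice, of which 7 had cells. Molecules (UMIs) were summed over the cells of each mouse, so that a mouse is 1 replicate.

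Young adult recipient mice of both sexes, congenic for CD45.1, were primed with ovalbumin (OVA), received B1-8hi B cells (carrying an Igh allele specific for the hapten NP) together with B1-8hi cells lacking Ly75, which encodes DEC-205, and were immunized in the footpad with NP-OVA in alum. Anti-DEC-OVA, an antibody that delivers OVA to DEC-205+ B cells and so forces T cell help on them, was injected 7 days after immunization. Time-course mice were collected at 0 h (day 7, 9 mice), at 48 h (day 9) without treatment (6 mice) or with anti-DEC-OVA (9 mice), and at 72 h (day 10) without treatment (8 mice) or with anti-DEC-OVA (7 mice). Every one of these mice had the same transfer, priming and immunization. The paper gives the mutation counts of this time course for DEC-205+ GC B cells. In the reporter experiment the B cells carried Rosa26 DHB-tdTomato, a sensor that is nuclear when CDK2 activity is low and cytoplasmic when it is high. For this sort the paper names reporter cells with or without an H2B-GFP transgene. All reporter mice were treated with anti-DEC-OVA and collected at 72 h, and their cells were sorted by image into CDK2-low (nuclear) and CDK2-high (cytoplasmic) pools. The paper compared these pools among cells with a dark zone expression profile. Here cells were not filtered by GC zone, dark or light, and the part of zone in the differences was not tested. Each pool is 1 library, so pool and library cannot be told apart. Each experiment of the time course holds mice of all 5 groups, and the fits carry a term for the experiment.

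In the GRCm39 annotation, Rad18 lies on chromosome 6 (112592603 to 112673665, minus strand, 13 exons in its canonical transcript), Polh on chromosome 17 (46481167 to 46514658, minus strand, 11 exons), Polk on chromosome 13 (96617196 to 96679087, minus strand, 15 exons), Rev1 on chromosome 1 (38091652 to 38169186, minus strand, 23 exons) and Poli on chromosome 18 (70641423 to 70663691, minus strand, 10 exons). Rev3l lies on chromosome 10 (39608095 to 39751214, plus strand, 32 exons), Mad2l2 on chromosome 4 (148214560 to 148230434, plus strand, 8 exons) and Polq on chromosome 16 (36832108 to 36915779, plus strand, 30 exons). Polq overlapped no other annotated gene. Polh overlapped the divergently transcribed Xpo5, Polk overlapped Cert1, Mad2l2 overlapped Draxin and Fbxo6, and Rev1 overlapped Eif5b, each on the other strand. Rev1 and Rev3l also each overlapped 1 predicted gene on their own strand, so reads there cannot be assigned with certainty.

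Translesion synthesis lets a DNA polymerase copy past a damaged base at which the replicative polymerases stall. Rad18 is the E3 ligase that attaches ubiquitin to the sliding clamp PCNA, which recruits the Y-family polymerases: Polh encodes polymerase eta, Polk polymerase kappa, Poli polymerase iota, and Rev1 a deoxycytidyl transferase that is also the scaffold on which the others gather. Rev3l encodes the catalytic subunit of polymerase zeta, which extends from the inserted base, and Mad2l2 encodes its partner REV7, also a subunit of shieldin in double-strand break repair. Polq encodes polymerase theta, which joins broken ends through short stretches of homology. In GC B cells, polymerase eta is known for the A:T mutations of somatic hypermutation and REV1 for a share of the C-to-G changes.

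Rad18, Polh and Polq had the 3 largest fold differences of the 8 genes both at 48 h after treatment and between the CDK2 pools, and the bases just before their canonical start sites are shown for that reason, read from GRCm39 5′ to 3′ on the strand of the gene. The Polh line is limited to the bases between its canonical start and the nearest annotated exon of any protein-coding gene before it. Capitals mark the only match found to any of the motifs searched, the cell cycle homology region (CHR) letters TTTGAA on the opposite strand of Polq.
Rad18, chr6:112673666-112673915: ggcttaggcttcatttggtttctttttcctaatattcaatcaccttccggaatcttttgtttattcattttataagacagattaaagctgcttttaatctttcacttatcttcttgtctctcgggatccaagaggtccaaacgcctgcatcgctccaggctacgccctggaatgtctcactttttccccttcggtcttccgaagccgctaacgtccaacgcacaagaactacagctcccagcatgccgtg
Polh, chr17:46513600-46513649: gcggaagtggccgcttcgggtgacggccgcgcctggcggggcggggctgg
Polq, chr16:36831858-36832107: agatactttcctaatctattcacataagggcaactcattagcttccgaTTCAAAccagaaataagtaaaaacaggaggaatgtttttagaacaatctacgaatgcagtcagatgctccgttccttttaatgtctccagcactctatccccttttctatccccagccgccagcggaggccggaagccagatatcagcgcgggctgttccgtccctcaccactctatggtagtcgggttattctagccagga
The search covered both strands of the 250 bases before the canonical start of 21770 protein-coding genes. TTTGAA was found in 15.6% of those windows and, of the 8 genes, in Polq alone. Letters of E2F type (TTTCCCGC, TTTGGCGC, TTTCGCGC or TTCCCGCC, of which some can overlap) were found in 3.59% of windows, and among the 8 genes in Rev1 and Rev3l. CCAAT was found in 36.5% of windows and, of the 8, only in Poli, and CACGTG was found in 6.26% of windows and in none of the 8. A match is a description of letters and not of binding.

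After assignment of cells to mice and filtering, 23698 cells of the 39 time-course mice and 11833 cells of the reporter mice were used, with 1984426 to 13373185 UMIs a mouse in the time course and 3988733 to 20394909 in each reporter pool. The B1-8hi heavy and light chain pairing was found in 9208 of 13625 cells of the larger and 4369 of 10073 cells of the smaller experiment. It was found in 4691 of 7448 CDK2-high and 2719 of 4385 CDK2-low cells. The main tests also kept cells without it, whereas the paper used only cells with it. Cells with a missing or an extra productive heavy or light chain contig were counted as lacking the pairing. These shares therefore do not give the share of cells of another origin. The median mitochondrial share per mouse was 2.17 to 2.53% in the larger experiment and 4.04 to 5.48% in the smaller one, and 3114 of the smaller experiment's cells had been removed for a mitochondrial share over 10%. The GC B cell markers Bcl6, Mef2b and S1pr2 averaged 268, 364 and 173 CPM (counts scaled to a library total of 1000000) over the time-course mice, whereas T cell markers summed to at most 34.0 CPM there and the 6 plasma cell markers summed to 747 to 2400 CPM per mouse in the time course, of which Jchain averaged 1108, Xbp1 150, Irf4 15.5, Prdm1 3.93, Sdc1 1.88 and Tnfrsf17 0.647 CPM. Between any pair of libraries, 6 to 94 cell barcodes were shared.

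All 8 genes passed the filter on low counts, with at least 24 UMIs in every mouse (for Polk) and at most 4227 (for Rev3l). Levels are CPM scaled by trimmed mean of M values (TMM), and are compared between samples within a gene, never between genes, since 5′ tag counts were not set per length. In a sum over all cells of a mouse, fewer cells of a kind and less RNA per cell cannot be told apart. Levels within called cell cycle phases and UMIs per cell are given further below.

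At 48 h after anti-DEC-OVA, the genes split by direction. Rad18, Polh, Polq and Mad2l2 were higher than in untreated mice of the same day, Rev1 and Rev3l were lower, and Polk and Poli did not pass the test. Across all 10270 genes tested, 47.3% passed (24.8% higher and 22.5% lower), so 6 of 8 genes passing is set against close to every other gene passing, and the genes are described by their sizes. The median log2 fold change was 0.11 over the 8 genes and -0.0046 over all genes tested. Whether groups of mice overlapped is given below as description only. How many of all genes separate without overlap was not counted in any comparison of the time course.

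Rad18 stood at 66.0, 70.1 and 75.2 CPM (lowest, median and highest of 6 treated mice) in the larger experiment, against 49.8, 53.2 and 56.8 CPM in 4 untreated mice. In the smaller experiment the 3 treated mice had 72.6, 74.4 and 80.3 CPM and the 2 untreated mice 54.7 and 60.2 CPM. Every treated mouse was above every untreated mouse of its experiment, and the fitted difference was 1.32-fold (log2 0.40, SE 0.06, adjusted p = 9.19e-07, edgeR quasi-likelihood test with Benjamini-Hochberg adjustment over all genes tested). Fitted alone, the larger and the smaller experiment gave log2 0.38 and 0.39.

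Among the Y-family genes, Polh had 138, 139 and 152 CPM (lowest, median, highest) in the treated mice of the larger experiment and 99.6, 103 and 118 CPM in the untreated mice. In the smaller experiment it had 160, 168 and 171 CPM with treatment and 114 and 134 CPM without. The groups did not overlap in either experiment, and Polh was 1.34-fold higher (log2 0.42, SE 0.06, adjusted p = 4.95e-07), with log2 0.40 in the larger experiment alone and 0.41 in the smaller one.

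Rev1 went the other way. Its levels were 131, 147 and 152 CPM (lowest, median, highest) in treated and 161, 166 and 178 CPM in untreated mice of the larger experiment, and 141, 161 and 163 CPM against 168 and 188 CPM in the smaller one. Every treated mouse lay below every untreated mouse of its experiment (log2 fold change -0.21, SE 0.05, adjusted p = 1.47e-03). The larger experiment alone gave -0.23, and the smaller one -0.21, which did not pass on its own (adjusted p = 0.0924).

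Polk had the lowest counts of the 8. It was measured at 9.50 to 11.9 CPM in treated and 8.15 to 12.9 CPM in untreated mice of the larger experiment, which overlapped, and at 13.3 to 14.6 against 18.03 to 19.2 CPM in the smaller one, which did not (log2 fold change -0.20, 95% confidence interval -0.38 to -0.01, adjusted p = 0.0768). The smaller experiment alone gave a Polk difference of -0.41 (adjusted p = 0.0434) and the larger one -0.07. Polk passed in 2 of the 17 alternatives run for this comparison, the smaller experiment alone being 1 of them. Poli overlapped between the groups in both experiments, and its interval ran from -0.10 to 0.18 on the log2 scale (adjusted p = 0.654).

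Of the polymerase zeta genes, Rev3l was lower by a small amount (log2 fold change -0.10, SE 0.04, adjusted p = 0.0425). Its treated mice had 157 to 177 CPM and its untreated mice 168 to 187 CPM in the larger experiment, which overlapped, and 219 to 236 against 250 to 255 CPM in the smaller one. Mad2l2 was 1.14-fold higher (log2 0.18, SE 0.06, adjusted p = 0.0125). It ran from 41.0 to 44.3 CPM with treatment and from 36.0 to 41.8 CPM without in the larger experiment, and from 31.1 to 31.9 against 24.9 and 28.1 CPM in the smaller one. Neither gene passed in one experiment alone: Rev3l had -0.10 and -0.15 (adjusted p = 0.0907 and 0.235) and Mad2l2 0.14 and 0.23 (adjusted p = 0.117 and 0.109) in the larger and the smaller one. Rev3l also lost its call with B1-8hi pairing only, where it was -0.05, without a filter on cells or on low counts, with the highest-hashtag assignment and without the experiment term. Mad2l2 lost its own without TMM scaling (adjusted p = 0.0804), without the experiment term (adjusted p = 0.286), in thinned cells (adjusted p = 0.172) and with B1-8hi pairing only, where it was 0.04 (adjusted p = 0.66).

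Polq was 1.24-fold higher (log2 0.31, SE 0.08, adjusted p = 1.28e-03). Treated mice had 32.3, 34.8 and 38.1 CPM (lowest, median, highest) and untreated mice 24.5, 26.0 and 27.4 CPM in the larger experiment, and 50.8, 52.7 and 56.0 against 47.97 and 48.8 CPM in the smaller one. The groups did not overlap in either experiment. The larger experiment alone gave log2 0.42, and the smaller one 0.12, which did not pass (adjusted p = 0.428). Without the experiment term the call was also lost (0.31, adjusted p = 0.244).

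**Figure D1:**
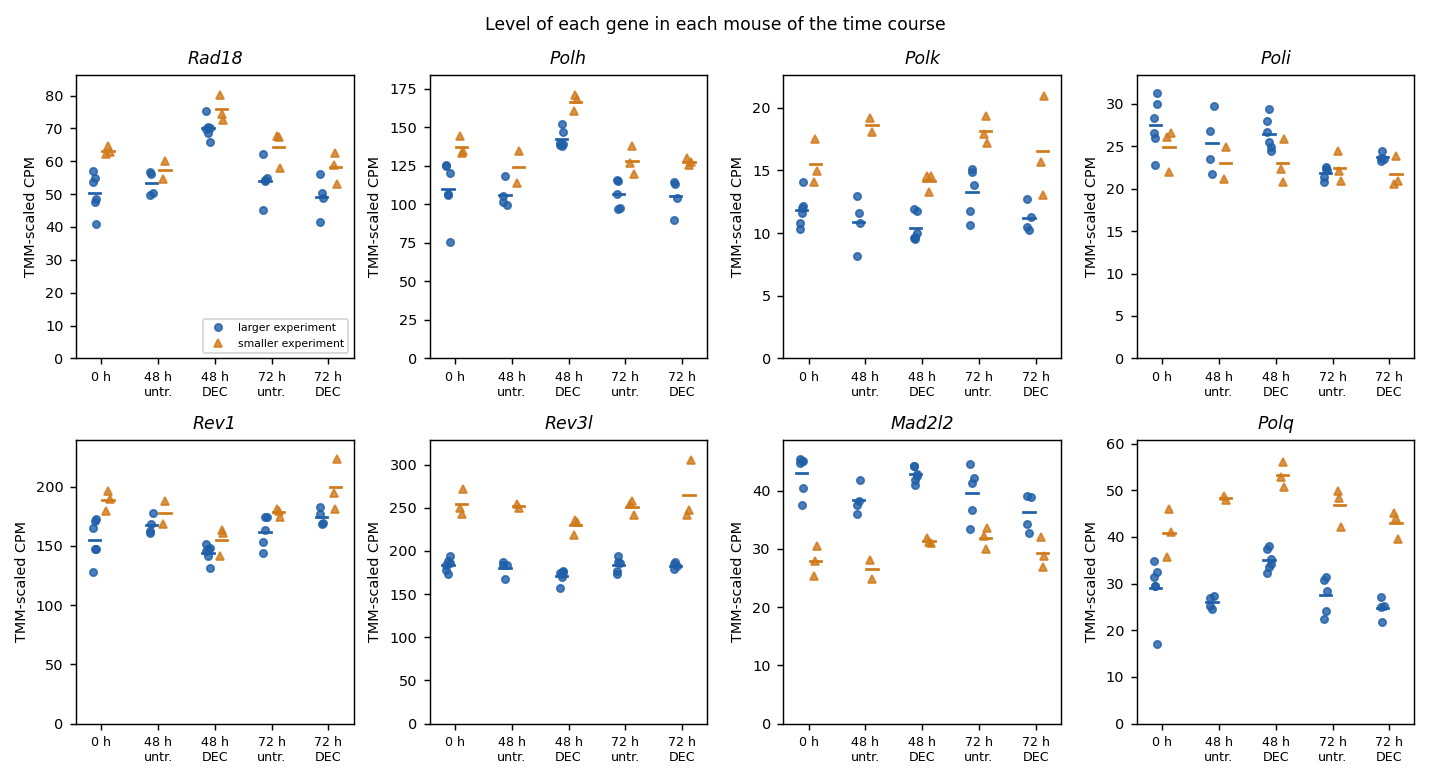
Level of each of the 8 genes (y axis, TMM-scaled CPM from 0) in each mouse of the time course, by group (x axis; untr., untreated; DEC, anti-DEC-OVA). Circles are the larger and triangles the smaller experiment, and bars are the mean of a group within an experiment. By group means, Rad18, Polh and Polq stood highest in the mice treated with anti-DEC-OVA at 48 h in both experiments, Rev1 stood lowest there, and the smaller experiment had higher Rev3l and lower Mad2l2 in every group.

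At 72 h after anti-DEC-OVA, none of the 8 genes passed the edgeR test against untreated mice of that day, where 8.66% of all genes passed. Rev1 and Rad18 had an unadjusted p under 0.05, with log2 fold changes of 0.13 (adjusted p = 0.151) and -0.14 (adjusted p = 0.19), both opposite in sign to those at 48 h. DESeq2 likewise called none of the 8. The intervals limited a change of Polh to between -0.14 and 0.12 on the log2 scale, and those of Polk, the widest, to between -0.40 and 0.0034.

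The treatment difference itself differed between the times for 5 of the 8 genes, where 31.4% of all genes passed (17.0% higher and 14.4% lower at 48 h than at 72 h). The difference at 48 h exceeded that at 72 h by 0.54 (SE 0.09, adjusted p = 2.14e-05) on the log2 scale for Rad18, 0.44 (SE 0.12, adjusted p = 3.64e-03) for Polq, 0.43 (SE 0.09, adjusted p = 2.86e-04) for Polh and 0.31 (SE 0.09, adjusted p = 8.81e-03) for Mad2l2. Mad2l2 lost this call in the larger experiment alone (0.27, adjusted p = 0.0723), in the smaller one alone (0.34, adjusted p = 0.155), in thinned cells (0.20, adjusted p = 0.436), with B1-8hi pairing only (0.18, adjusted p = 0.241) and without the experiment term (0.32, adjusted p = 0.278). Polq lost it in the smaller experiment alone (0.23, adjusted p = 0.362), with B1-8hi pairing only (0.30, adjusted p = 0.124) and without the experiment term (0.44, adjusted p = 0.335). For Rev1 it was lower by 0.34 (log2 -0.34, SE 0.08, adjusted p = 8.73e-04), a call lost in the smaller experiment alone (-0.36, adjusted p = 0.0706). Rev3l did not pass (-0.12, adjusted p = 0.095), and Polk and Poli were at 0.00046 and 0.00067. Of 11 alternatives, 2 called Rev3l, and its log2 values over all 11 ran from -0.20 to -0.09.

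Treated mice were also compared over time. This comparison shares the 48 h treated mice with the one against untreated mice, so the values stand side by side and are not a second line of support. From the 72 h to the 48 h level, Rad18 was 1.37-fold (log2 0.46), Polh 1.33-fold (log2 0.41) and Polq 1.33-fold (log2 0.41) higher, Mad2l2 was 1.13-fold higher (log2 0.17), and Rev1 (log2 -0.31) and Rev3l (log2 -0.14) were lower, where 48.9% of all genes passed (24.8% higher and 24.1% lower). The largest adjusted p among these 6 genes was 0.0185, for Mad2l2, which lost the call in the smaller experiment alone (log2 0.06), in thinned cells (0.05), with B1-8hi pairing only (0.04), without TMM (0.09) and without the experiment term (0.23). Rev3l lost it in the smaller experiment alone (-0.20, adjusted p = 0.063) and without the experiment term (-0.17), where Polq lost its call too (0.38, adjusted p = 0.129). In treated mice at 72 h, Rev1 reached 168, 173 and 183 CPM (lowest, median, highest of 4 mice) in the larger experiment, and every one of these mice was above every treated mouse of 48 h.

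Without treatment, the genes changed little with time. From 0 h to 72 h, 3.95% of all genes passed, and of the 8 only Poli did (log2 fold change -0.24, SE 0.07, adjusted p = 0.0392). Poli had 22.8, 27.5 and 31.3 CPM (lowest, median, highest) at 0 h and 20.8, 22.2 and 22.6 CPM at 72 h in the larger experiment, without overlap, whereas in the smaller one 22.0 to 26.6 CPM and 20.9 to 24.5 CPM overlapped. This call was lost under 8 of the 11 alternatives tried for it, DESeq2 among them.

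**Figure D2:**
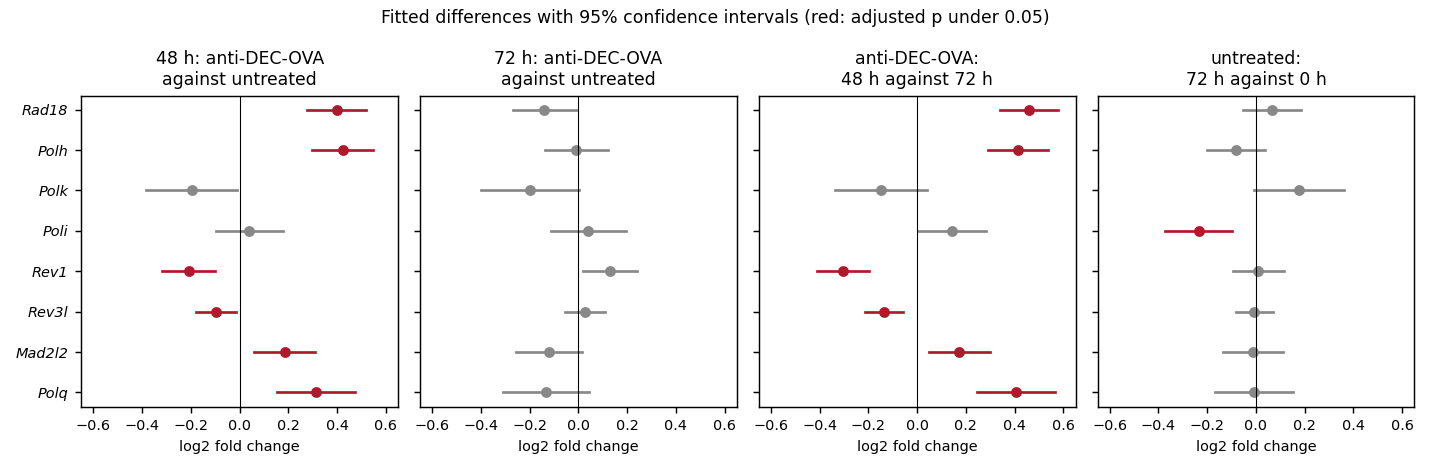
Fitted log2 fold change (x axis) of each gene (y axis) in 4 comparisons of the time course, with lines for 95% confidence intervals; red marks an adjusted p under 0.05. At 48 h, 4 genes pass the test above 0 and 2 below 0, and at 72 h none passes.

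The share of cells in each cell cycle phase, called from expression scores of published S and G2-M gene lists that hold none of the 8 genes, moved with the groups. Cells called G0-G1 made up 17.5 to 24.6% of a mouse's cells at 48 h after anti-DEC-OVA, and 46.6 to 56.9% in untreated mice of that day. Cells called S made up 32.5 to 40.2% and 18.7 to 26.0%, and cells called G2-M 39.2 to 47.7% and 22.7 to 33.5%. Median UMIs per cell were 10004 to 14467 in treated and 5030 to 7455 in untreated mice at 48 h. The summed markers of naive or memory B cells, of which Fcer2a makes up most, were also lower, at 97.2 to 204 CPM against 224 to 419 CPM. T cell markers were at 2.30 to 8.28 CPM against 11.3 to 15.1 CPM, and of the 5 that could be tested 3 were lower (Cd3e, Cd3d and Cd3g). The summed plasma cell markers were at 1199 to 2022 CPM (median 1507) in treated and 747 to 1537 CPM (median 1129) in untreated mice, with Jchain, the joining chain of secreted antibody, higher (log2 0.49) and Irf4, a factor of activated B and plasma cells, lower (log2 -0.98). Of 5 testable genes of handling stress, Jun (log2 -0.67), Junb (log2 -0.50) and Egr1 (log2 -0.86) were lower, and that list summed to 170 to 279 CPM against 196 to 362 CPM. The part of these markers in the results was not tested.

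To set these shares beside the levels, the 8 genes were measured in cells of each phase within 23 untreated mice (0 h, 48 h and 72 h), each phase summed within its mouse and compared with the mouse as a block. Most genes differ between phases in such sums: 79.4% of 9656 genes passed between S and G0-G1 cells (36.1% higher and 43.4% lower in S), and 75.2% between G2-M and G0-G1 cells (33.9% higher and 41.3% lower in G2-M). Of the 8 genes, 6 were higher and 1 lower in S, and 5 were higher and 2 lower in G2-M. The sizes separated the genes more than the calls.

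Rad18 had 8.90, 13.9 and 23.1 CPM (lowest, median, highest) in G0-G1 cells, 58.4, 76.4 and 95.8 CPM in S cells and 67.4, 78.6 and 97.5 CPM in G2-M cells. It was higher in S and in G2-M than in G0-G1 cells in 23 of 23 mice, by 5.31-fold (log2 2.41, SE 0.06, adjusted p = 3.34e-48) and 5.36-fold (log2 2.42, SE 0.06, adjusted p = 6.63e-49). Its S and G2-M levels were close, with G2-M above S in 13 of 23 mice.

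Polh rose in steps. Its medians were 37.3 CPM in G0-G1 cells (range 23.1 to 57.5), 80.2 CPM in S cells (range 55.2 to 106) and 220 CPM in G2-M cells (range 180 to 288), and G2-M cells were above S cells in 23 of 23 mice. Relative to G0-G1 cells, Polh was 2.20-fold higher in S (log2 1.14, SE 0.07, adjusted p = 1.8e-25) and 5.99-fold higher in G2-M (log2 2.58, SE 0.06, adjusted p = 1.91e-51). Cells called G2-M held 68.3% of Polh's 13837 UMIs in these mice and 37.5% of all UMIs.

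Polq was found mostly in S and G2-M cells. Its level in G0-G1 cells was 0 to 9.70 CPM (median 2.20), resting on 0 to 12 UMIs a mouse, against medians of 41.5 CPM in S cells (range 29.0 to 65.03) and 49.6 CPM in G2-M cells (range 35.7 to 90.3). G0-G1 cells, with 48.8% of the cells and 30.3% of all UMIs, held 2.60% of Polq's 4121 UMIs. The fitted differences were 15.1-fold in S (log2 3.92, SE 0.12, adjusted p = 3.31e-42) and 17.4-fold in G2-M (log2 4.12, SE 0.12, adjusted p = 6.85e-45), and at such low counts they depend on the prior count of the fit.

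Mad2l2 peaked in S cells. Its medians were 22.9, 58.4 and 29.5 CPM in G0-G1, S and G2-M cells, S was above both other phases in 23 of 23 mice, and 50.1% of its 4317 UMIs lay in S cells. Its differences from G0-G1 cells were 2.47-fold in S (log2 1.31, SE 0.07, adjusted p = 2.26e-28) and 1.28-fold in G2-M (log2 0.36, SE 0.08, adjusted p = 2.2e-05), but in cells thinned to 3320 UMIs each and called again the G2-M value was -0.01. Rev3l also had its highest level in S cells, with medians of 181, 227 and 184 CPM, but by only 1.23-fold over G0-G1 (log2 0.30, SE 0.04, adjusted p = 9.59e-11), and G2-M cells did not differ from G0-G1 cells beyond the error (log2 -0.03, 95% confidence interval -0.10 to 0.05). Of 8 alternatives, 2 called this G2-M difference of Rev3l, and the log2 values of all 8 ran from -0.14 to 0.06.

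Rev1, Poli and Polk had no phase that stood far above the others. Rev1 had medians of 177, 171 and 163 CPM in G0-G1, S and G2-M cells, with a small fall in G2-M (log2 -0.12, SE 0.04, adjusted p = 5.14e-03; 0.05 in thinned cells; called in 6 of 8 alternatives) and none that passed in S (log2 -0.08, adjusted p = 0.0574). The S value passed with DESeq2 (-0.09), without a filter on low counts (-0.09), without TMM (-0.15) and in the smaller experiment alone (-0.21), and was 0.08 in thinned cells. Poli had its lowest level in S cells, with medians of 25.7, 18.7 and 28.7 CPM (log2 -0.41, SE 0.07, adjusted p = 1.62e-06 for S), and G2-M cells were above S cells in 22 of 23 mice. Its small excess in G2-M over G0-G1 cells (log2 0.15, adjusted p = 0.045) was not called with DESeq2, without TMM, without a filter on low counts or in the smaller experiment alone. Polk was a little higher in S cells (log2 0.25, SE 0.09, adjusted p = 0.0112) and lower in G2-M cells (log2 -0.21, SE 0.09, adjusted p = 0.0367), on 1 to 58 UMIs a mouse and phase, and thinned G2-M cells gave -0.02. The G2-M call of Polk was also lost in either experiment alone and without the block, and its S call without TMM and in the smaller experiment alone.

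**Figure D3:**
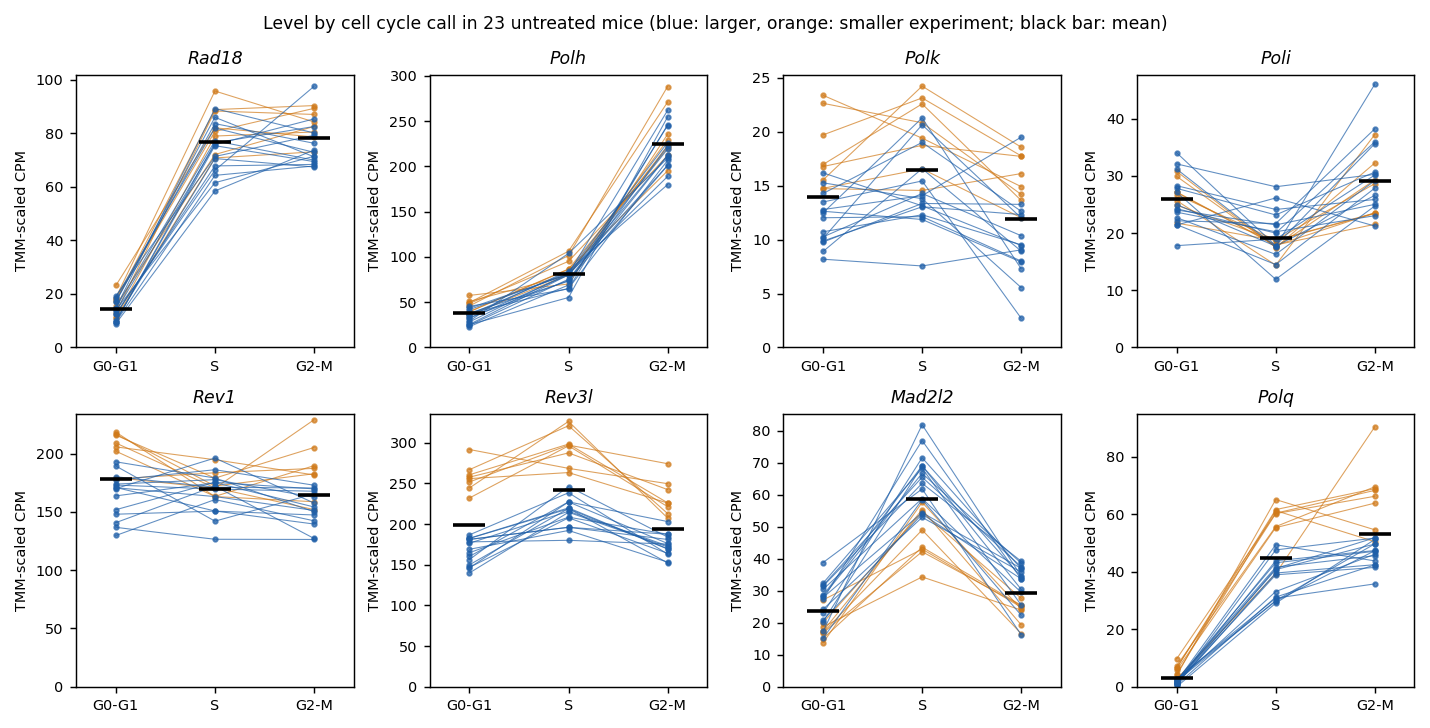
Level of each gene (y axis, TMM-scaled CPM from 0) in cells called G0-G1, S and G2-M (x axis) in 23 untreated mice; each line is 1 mouse, blue for the larger and orange for the smaller experiment, and black bars are means. Polh climbs to G2-M, Rad18 and Polq are high in both S and G2-M, Mad2l2 peaks in S, Poli dips in S, and Rev1 is nearly level.

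The treatment comparison at 48 h was then repeated within each phase. In G0-G1 cells 9.35% of genes passed and 1 of the 7 members tested did, Rev1 (log2 -0.29, adjusted p = 7.59e-03); Polq had too few counts there to be tested. In S cells 11.4% of genes passed, and 2 of 8 did: Polh was higher (log2 0.35, SE 0.07, adjusted p = 8.14e-04) and Rev1 lower (log2 -0.23, SE 0.07, adjusted p = 0.0169). In G2-M cells 17.3% of genes passed and none of the 8 did.

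Polh in S cells stood at 82.1, 94.5 and 99.98 CPM (lowest, median, highest) in treated and 64.6, 75.99 and 79.7 CPM in untreated mice of the larger experiment. In the smaller one it stood at 104, 112 and 114 CPM in treated mice and at 79.0 and 84.6 CPM in untreated mice. The groups did not overlap in either experiment, whereas in G2-M cells, where Polh is highest, the difference was 0.02 on the log2 scale (95% confidence interval -0.10 to 0.15). Rad18, which had 1.32-fold more over all cells, differed by -0.03 in S cells (95% confidence interval -0.18 to 0.12) and 0.13 in G2-M cells (95% confidence interval -0.0044 to 0.26). In G0-G1 cells neither passed, with log2 values of 0.24 for Polh (95% confidence interval -0.06 to 0.53) and 0.29 for Rad18 (95% confidence interval -0.11 to 0.70), and in thinned G0-G1 cells 0.48 (adjusted p = 0.162) and 0.52 (adjusted p = 0.381), so a difference there as large as that over all cells lies within the intervals. Polq differed by 0.03 in S cells (95% confidence interval -0.17 to 0.23) and -0.16 in G2-M cells (95% confidence interval -0.32 to 0.01).

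Rev1 kept a negative sign in all 3 phases, at -0.29, -0.23 and -0.13 on the log2 scale in G0-G1, S and G2-M cells, the last of these not passing the test (adjusted p = 0.18). In S cells its levels were 128, 141 and 153 CPM (lowest, median, highest) in treated and 139, 163 and 184 CPM in untreated mice of the larger experiment, which overlapped, and 139 to 154 CPM against 167 to 192 CPM in the smaller one, which did not. Rev3l differed by -0.13, -0.12 and -0.13, and passed in no phase. Because treated cells held more UMIs, each cell was also thinned to 3320 UMIs and its phase called again, an alternative chosen after seeing the data. In thinned G0-G1 cells Rev1 lost its call (log2 -0.17, adjusted p = 0.377), and in thinned G2-M cells it had -0.16 (adjusted p = 0.262). In thinned S cells Rev1 was lower (log2 -0.28, adjusted p = 0.0305) and Polh had a log2 difference of 0.32 that did not pass (adjusted p = 0.096). Differences within S, such as early against late S cells, were not tested.

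**Figure D4:**
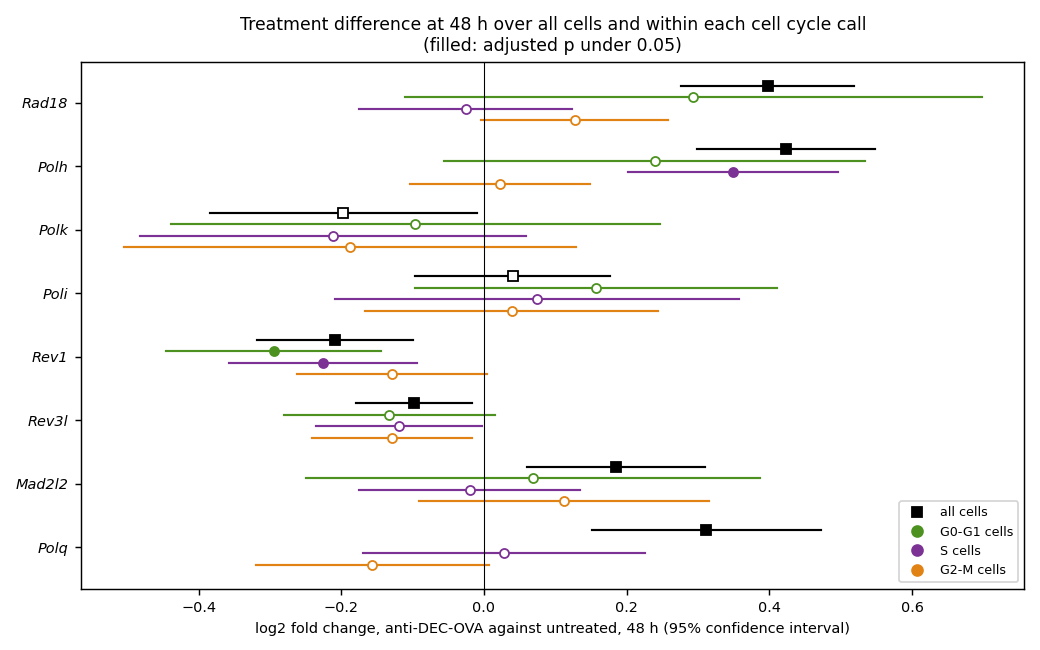
Log2 fold change at 48 h, anti-DEC-OVA against untreated (x axis), of each gene (y axis) over all cells (black squares) and within cells called G0-G1 (green), S (purple) or G2-M (orange), with 95% confidence intervals; filled symbols have an adjusted p under 0.05. Rad18 and Polq lie near 0 within S cells, Polh passes the test in S cells and not in the other 2 phases, and Rev1 lies below 0 in all.

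CDK2 activity rises as cells enter S phase and is low in G0 and early G1. In the reporter experiment, CDK2-low and CDK2-high cells of the same mouse were compared with the mouse as a block, in 7 mice. Cells called G0-G1 made up 52.7 to 63.2% of the CDK2-low cells and 12.6 to 19.1% of the CDK2-high cells, S cells 29.3 to 36.3% and 30.5 to 40.6%, and G2-M cells 6.65 to 12.6% and 45.6 to 56.9%. Naive or memory B cell markers summed to 304 to 455 CPM in the CDK2-low and 106 to 187 CPM in the CDK2-high pool, and the median mitochondrial share was 3.35 to 3.88% and 2.97 to 3.42%. T cell markers summed to 56.1 CPM in the CDK2-low cells of 1 mouse, with a median of 3.96 CPM, and to at most 3.16 CPM in CDK2-high cells. With any 1 reporter mouse left out, 6 of the 8 genes passed, and the part of the other markers was not tested. In this comparison 73.3% of 10596 genes passed (37.8% higher and 35.6% lower in CDK2-low cells), and 6 of the 8 genes did, which is close to the share of all genes.

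The largest difference was that of Polq, with 6.54, 7.36 and 10.97 CPM (lowest, median, highest) in CDK2-low and 47.4, 53.2 and 59.7 CPM in CDK2-high cells (log2 -2.76, SE 0.06, adjusted p = 1.25e-22). Polh had 40.5, 49.7 and 51.7 CPM against 137, 150 and 163 CPM (log2 -1.61, SE 0.04, adjusted p = 2.26e-21). Rad18 had 22.6, 25.5 and 30.7 CPM against 70.5, 72.1 and 76.5 CPM (log2 -1.50, SE 0.05, adjusted p = 2.35e-19), and Mad2l2 had 25.9, 29.5 and 31.6 CPM against 39.5, 48.1 and 50.8 CPM (log2 -0.67, SE 0.04, adjusted p = 6.3e-13). For these 4 genes the CDK2-low pool was lower in 7 of 7 mice and the pools did not overlap. The share of all genes that separate in this way was not counted. As 73.3% of all genes passed the test, nothing particular to these genes is read from it.

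Rev1 and Rev3l differed by little, and their ranges overlapped. Rev1 was higher in the CDK2-low cells of 7 of 7 mice (182, 199 and 224 CPM against 176, 194 and 202 CPM; log2 0.10, SE 0.03, adjusted p = 1.90e-03). Rev3l was lower in 7 of 7 mice (205, 223 and 249 CPM against 218, 235 and 257 CPM; log2 -0.08, SE 0.03, adjusted p = 0.0107), but its direction differs between phases and depends on the scaling: with library sizes alone, which move the median of all genes from 0.03 to 0.23 on the log2 scale, Rev3l was higher in CDK2-low cells (log2 0.12, adjusted p = 9.62e-05). Without the mouse as a block neither Rev1 (adjusted p = 0.0736) nor Rev3l (adjusted p = 0.229) passed, and Rev3l also lost its call with B1-8hi pairing only (-0.06, adjusted p = 0.0923) and in thinned cells (-0.05, adjusted p = 0.242). Poli (95% confidence interval -0.10 to 0.12) and Polk (95% confidence interval -0.05 to 0.22) did not pass, but with library sizes alone both did, at log2 0.21 (adjusted p = 0.00116) and 0.29 (adjusted p = 0.000417), close to the median of all genes on that scale.

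Phases were called in each pool separately, so a phase call need not mark the same state in both pools. The part of this in the differences below was not tested. Polq, Polh, Rad18 and Mad2l2 were called lower in the CDK2-low pool in all 3 phases. In S cells, where 61.1% of genes passed, Polq (log2 -1.75), Polh (log2 -1.10), Rad18 (log2 -0.86) and Mad2l2 (log2 -0.49) were lower in the CDK2-low pool, with adjusted p of at most 3.61e-09, and Rev1 was higher (log2 0.15, adjusted p = 0.00151), a call lost in thinned S cells (adjusted p = 0.137). In S cells Polh had 45.2, 51.1 and 58.4 CPM (lowest, median, highest) in CDK2-low and 96.5, 113 and 125 CPM in CDK2-high mice, without overlap. In G0-G1 cells, where 60.3% of genes passed, Polh was lower (log2 -0.75, adjusted p = 1.98e-10) and Rev1 (log2 0.57, adjusted p = 2.78e-14) and Rev3l (log2 0.23, adjusted p = 8.46e-05) higher in the CDK2-low pool. In G2-M cells, where 49.2% of genes passed, Rev1 (log2 -0.37, adjusted p = 2.45e-05) and Rev3l (log2 -0.31, adjusted p = 9.52e-05) had the other sign and Poli was higher (log2 0.60, adjusted p = 1.8e-05).

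**Figure D5:**
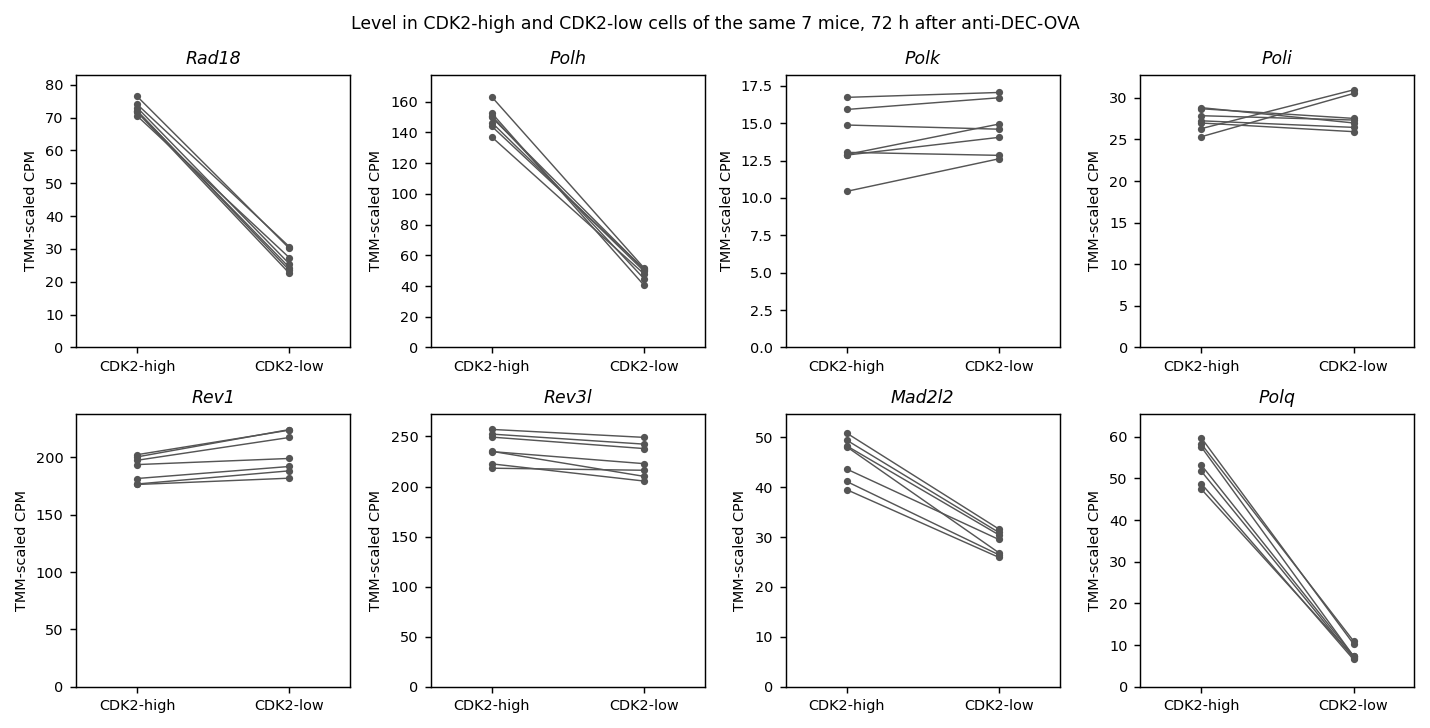
Level of each gene (y axis, TMM-scaled CPM from 0) in the CDK2-high and CDK2-low pools (x axis), with a line for each of 7 mice. Polq, Polh, Rad18 and Mad2l2 fall in every mouse without overlap of the pools. The other genes stay within overlapping ranges, and of these Rev3l also falls and Rev1 rises in every mouse, by little.

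Across the 39 time-course mice, with the mean of each experiment removed, the genes whose log2 level most resembled that of Polh were Cep55 (Pearson's r = 0.92), Hmgb2 (r = 0.92) and Cdca8 (r = 0.91), and for Polq Top2a (r = 0.92), H2ac8 (r = 0.92) and H2ac4 (r = 0.91). Cep55 and Cdca8 act in cell division and Top2a untangles replicated DNA. For Rad18 they were Cdc27, Selenoh and Nucks1 (r = 0.89, 0.89 and 0.88), and for Mad2l2 Cdc23, Actn4 and Mgme1 (r = 0.71, 0.68 and 0.66). Rev1 was most like Stt3b, Tmem131 and Hdac9 (r = 0.86, 0.85 and 0.85), and Rev3l most like Dlg1, Pan3 and Esyt2 (r = 0.78, 0.78 and 0.78). Polk (Zfp992, Map2k1 and Akap5; r = 0.67, 0.64 and 0.64) and Poli (Akr7a5, Strbp and Osbpl9; r = 0.60, 0.58 and 0.57) had weaker likenesses. Between the members, Polh and Rad18 had r = 0.84, Polh and Polq r = 0.74 and Rev1 and Rev3l r = 0.66, whereas Rad18 and Rev1 had r = -0.55. The points share 2 libraries and the groups above, so these are descriptions.

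Other genes of lesion bypass and of replication were counted from fixed lists. Of 17 genes that attach or remove ubiquitin at PCNA, bind it or act at stalled forks, treated mice of 48 h had 9 higher and 1 lower (Shprh, an E3 ligase for PCNA, log2 -0.22), and none passed at 72 h, where 47.3% and 8.66% of all genes passed. In CDK2-low cells 12 were lower and 3 higher (Shprh, log2 0.41; Primpol, a primase that restarts stalled forks, log2 0.12; and Usp7, a deubiquitylase, log2 0.06), where 73.3% of all genes passed. The 10 and 15 genes called of 17 are set against those shares, and nothing particular to the list is read from them. The largest changes at 48 h were those of Pclaf, a PCNA-binding factor (log2 0.59), Pcna itself (log2 0.55) and Atad5, which unloads PCNA from DNA (log2 0.54). In CDK2-low cells they were those of Pclaf (log2 -2.49), Zranb3, a fork-remodelling translocase (log2 -1.45), and Pcna (log2 -1.39). The list's median log2 fold change was 0.13 at 48 h and -0.46 in CDK2-low cells, where the medians of all genes were -0.0046 and 0.03.

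Of 12 subunits of the replicative polymerases and primase, 11 were higher and 1 lower (Pold4, log2 -0.14) at 48 h, led by Pole3, Prim1 and Pold2 (log2 0.42, 0.42 and 0.41), with a median of 0.32 where that of all genes was -0.0046 and 24.8% of all genes were higher. At 72 h 1 was higher, Pold4 (log2 0.16). All 12 were lower in CDK2-low cells, led by Pold2, Pole and Prim1 (log2 -1.37, -1.31 and -1.14), with a median of -0.87, where 35.6% of all genes were lower. In S against G0-G1 cells 11 were higher and 1 lower (Pold4, log2 -0.67), with Pole highest (log2 3.40), and a median of 1.70 where that of all genes was -0.07 and 36.1% of all genes were higher. Pola1, Prim1 and Pold3 of this list also served to call the phases, as did Pcna, Usp1 and Dtl of the list before it. Of 7 other repair and mitochondrial polymerases, 6 could be tested, and at 48 h Poln alone passed (log2 0.37) and at 72 h none, with medians of 0.02 and 0.04, where 47.3% and 8.66% of all genes passed. In CDK2-low cells Polm (log2 0.75) and Polg2 (log2 0.24) were higher and Poln (log2 -0.38) and Polg (log2 -0.22) lower, 4 of 6 in all where 73.3% of all genes passed, with a median of -0.08.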

How the data were processed

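Gene expression and hashtag antibody counts came from 10X Genomics 5′ single-cell libraries. The deposited count matrices hold UMI counts, which the authors made with Cell Ranger on a mouse mm39 (GRCm39) reference: the matrix headers give version 8.0.1, while the submitters' processing notes list Cell Ranger 6.0.1 and Seurat 5.1.0. Lists deposited by the authors gave each mouse its group and hashtag numbers. No replicate was pooled. Immunoglobulin contig tables of the same cells served 1 alternative below, and the series' other gene expression libraries were not used here.

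Hashtag counts were centred-log-ratio transformed, and each hashtag's background was fitted as in HTODemux of Seurat 5.3.0 with the positive quantile at 0.99 (fitdistrplus 1.2.4, R 4.3.3). A cell was kept where its positive hashtags were those of 1 listed mouse, so cells with hashtags of several mice were taken as doublets and left out, and doublets within a mouse were not removed. Cells with fewer than 200 genes or 10% or more mitochondrial UMIs were left out. Of 9 listed reporter mice, 7 had cells. In the reporter pools 1 hashtag belonged to no listed mouse and served only to find doublets. Phases were called with CellCycleScoring from 43 S and 54 G2-M genes, in each library separately.

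UMI counts were summed per mouse, or per mouse and phase, filtered with filterByExpr, scaled by TMM and tested with edgeR 4.0.16 (quasi-likelihood, Benjamini-Hochberg adjustment over all genes tested, threshold 0.05). All 5 time-course groups shared 1 fit with a term for the experiment. The 2 CDK2 pools and the phases hold cells of the same animals, so the mouse entered those fits as a block. Mice are separate animals. Counts are of molecules sequenced once and cover no loss before capture, and genes with few UMIs, Polk above all, are the least precise. The edgeR test of the 48 h treatment comparison was tried on simulated counts with known changes. The other steps were not tried on simulated data. Fitted folds depend on the prior count where counts are near 0.

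Alternatives were DESeq2 1.42.0, no filter on genes or on cells, cells with the B1-8hi heavy and light chain gene pairing only, by the deposited Cell Ranger contig tables, whose counts of UMIs per contig were not used, hashtags assigned by the highest count (at least 10 UMIs and 3 times the next), cells thinned to 3320 UMIs with scuttle 1.12.0 (3553 shallower cells left out), each experiment alone, no experiment term, only the groups compared, each phase alone, no block, and each reporter mouse left out. Library sizes without TMM and thinned cells split by phase were added after seeing the data.

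All 8 members are named whatever their result. Of each pathway list the text gives counts and up to 3 genes with the largest absolute log2 fold change past the threshold, and of each member the 3 genes of highest Pearson correlation. Other single genes named beside a small count (Shprh, Primpol, Usp7, Pold4 and Polg) were chosen after their values were seen. The members and lists were chosen with earlier results of these data known. Promoter sequences were read from GRCm39 with GENCODE vM39 start sites. A result that rests on an item withheld from the text is not reported here.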

Additional observations from a re-analysis of the deposited data

Results flagged for a closer look

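The treatment difference at 48 h and that at 72 h were unlike for 5 genes by the test of the difference itself (edgeR interaction contrast), where 31.4% of all genes tested passed. For Rad18 the log2 difference between treated and untreated mice was 0.40 at 48 h and -0.14 at 72 h, apart by 0.54, and for Polh it was 0.42 and -0.01, apart by 0.43. For Polq it was 0.31 and -0.13, apart by 0.44, for Mad2l2 0.18 and -0.12, apart by 0.31, and for Rev1 -0.21 and 0.13, apart by -0.34. Each experiment alone gave the same sign for all 5 genes. The shares of cells in each phase and the UMIs per cell moved with the same groups, and their part in these differences was not tested.

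Poli in untreated mice at 72 h had 1 mouse of the smaller experiment at 24.5 CPM, with the next of the 8 mice at 22.6 CPM. Its gap made up 0.528 of the range of the group, past Dixon's critical value for a group of that size. Of 56 groups looked at in this way, 1 stood out, and chance gives about 1 in 20 such groups.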

How the results depend on the processing

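Of the 8 genes, 6 passed at 48 h, 6 between treated mice of 48 h and 72 h, and 5 in the test of the treatment difference between the times. Without a term for the experiment these counts were 3, 3 and 3, and the smaller experiment alone gave 3 at 48 h and 2 for the difference. The 3 of the smaller experiment at 48 h were Rad18, Polh and Polk, and Polk is not among the 6 of the main test. B1-8hi pairing only gave 3 for the difference. Calls over all genes fell too, to 2680, 3104 and 1222 of 10220 without the term, 2149 and 768 of 10334 in the smaller experiment and 1924 of 9893 with B1-8hi pairing. Within G0-G1, S and G2-M cells the count at 48 h was 1, 2 and 0, and in thinned cells 0, 1 and 0, where 843 of 9013, 1041 of 9167 and 1602 of 9261 genes passed, and 232 of 7848, 531 of 6928 and 770 of 7245 in thinned cells. Between 48 h and 72 h it was 0 in G0-G1, 4 in S and 2 in G2-M cells, and 0, 2 and 1 in thinned G0-G1, S and G2-M cells, where 490 of 9013, 2298 of 9167 and 2638 of 9261 genes passed, and 182, 863 and 993 in thinned cells, so calls over all genes fell as well. The phase subsets hold fewer cells, and in thinned cells G2-M against G0-G1 gave 4 in place of 7, where 5066 of 8071 genes passed in place of 7266 of 9656. The single call of Poli over time without treatment became 0 with B1-8hi pairing only, DESeq2, thinned cells, no TMM, no filter on low counts, no experiment term, only the groups compared and the smaller experiment alone.

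Signs turned for some called genes, and the cause was not tested. At 48 h the log2 values were -0.020 for Mad2l2 and -0.025 for Rad18 in S cells, -0.16 for Polq in G2-M cells, and -0.069 for Polh and -0.23 for Polq in thinned G2-M cells. Between 48 h and 72 h, Mad2l2 had -0.047 in G0-G1, -0.14 in S and -0.32 in thinned S cells, Polh -0.043 in G2-M and -0.20 in thinned G2-M cells, Polq -0.091 in G2-M cells and Rad18 -0.0044 in thinned G2-M cells. Mad2l2 (-0.010) and Rev1 (0.049) turned between thinned G2-M and G0-G1 cells. In CDK2-low against CDK2-high cells, Rev1 had -0.37 in G2-M and -0.29 in thinned G2-M cells, and Rev3l had 0.23 in G0-G1, 0.19 in thinned G0-G1 and 0.12 without TMM, which moved the median of all genes from 0.03 to 0.23.

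The CDK2 and phase comparisons are paired by mouse. Without that block, 4 of 8 genes in place of 6 passed between the CDK2 pools, 7 between S and G0-G1 and 6 between G2-M and G0-G1 cells, where 7052 of 10120, 7378 of 9280 and 6946 of 9280 genes passed. Leaving out each reporter mouse in turn left 6 each time. The time-course groups hold different mice, so no paired analysis was possible there. Across all genes, calls at 48 h numbered 4855, and 3149 in thinned cells. At 72 h they fell from 889 to 22 in the smaller experiment alone, and the test between the times had 3223. None of the 8 genes passed at 72 h under any of the alternatives run for it. Low counts limit Polk, and Polq in G0-G1 cells, most.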

Other observations

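Counted as UMIs per cell, without scaling to library totals, each of the 8 genes was at a higher mean in treated than in untreated mice at 48 h, Rev1 and Rev3l included. Polh had 2.17 ± 0.128 UMIs per cell (SD, n = 9 mice) with anti-DEC-OVA and 0.938 ± 0.0885 (SD, n = 6) without, and Rad18 had 1.04 ± 0.0793 and 0.458 ± 0.0311. Rev1 had 2.13 ± 0.0990 and 1.43 ± 0.0923 UMIs per cell, and Rev3l 2.74 ± 0.298 and 1.70 ± 0.244, so their lower level on the CPM scale is relative to the other RNA of the same cells. The median UMIs per cell over mice were 13704 in treated and 6666.5 in untreated mice of that day.

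In the reporter pools, CDK2-low cells had the larger UMI totals, with a median over mice of 12956 UMIs per cell against 10513.5 in CDK2-high cells. Rev1 had 2.91 ± 0.152 UMIs per CDK2-low cell and 1.94 ± 0.0545 per CDK2-high cell, and Rev3l 3.23 ± 0.103 and 2.43 ± 0.108 (SD, n = 7 mice each). Polq had 0.115 ± 0.0203 and 0.548 ± 0.0320, and Polh 0.691 ± 0.0899 and 1.52 ± 0.102, lower in CDK2-low cells also on this scale. These values were not tested, and depth per cell differs between the libraries.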
